A study of Rattus norvegicus with 16 samples.

Results

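Cytosolic sulfotransferases were followed in the liver of adult male rats. The set was 7 named genes, Sult2a6, Sult2a1, Sult1a1, Sult1b1, Sult1c2, Sult1c3 and Sult1e1. The genes were selected on their log2 ratios, by the spread between arrays and the differences between groups, so those values are descriptions here and support no test. A probe belonged to a gene when its accession matched that gene's symbol. On that rule 6 of the 7 genes had a probe, 7 probes in all (2 for Sult1b1), out of 26913 distinct names on the array. No probe matched Sult1e1, the estrogen sulfotransferase, by accession, and that gene was not analysed here. All 6 genes with a probe were among the 11091 features bright enough in liver to be tested, Sult1c2 only through its MM and M arrays.

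The study examined whether fostering a litter at birth and a contaminant mixture given to the mother leave a mark on liver gene expression. All animals were male Sprague-Dawley rats aged 78 to 86 days whose dams were dosed from the start of gestation to postnatal day 20. MM rats were born to dams dosed with 1.0 mg/kg/day of a mixture in corn oil, which held methylmercury, polychlorinated biphenyls (PCBs) and organochlorine pesticides, with litters fostered between exposed dams. M rats had the same mixture and dose and stayed with their own mothers. CC rats were born to dams given corn oil alone, with litters fostered between control dams. C rats had corn oil alone and stayed with their own mothers. For the M arrays one field of the labels reads as a control while the title and the treatment field give the mixture, and they were taken as exposed. Each group had 8 pups, and each of its 4 arrays holds the pooled RNA of 2 of them. The sources used here do not say whether rats of a pool shared a litter, and p-values measure the spread between pools.

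On all 16 arrays liver RNA was labelled with Cy5. Cy3 marked a common reference, a commercial pool of RNA from 14 lines of cultured rat cells. A value below is, unless said otherwise, the log2 ratio of liver over reference. "Liver channel" and "reference channel" mean the log2 signal of one dye alone, made comparable between arrays. MM and M lay on one slide and CC and C on the other, so slide and exposure cannot be told apart in M minus C or MM minus CC. Each slide had 2 rows with 2 arrays of each of its groups per row. By the scanner software's own flag, the share of probes detected in liver ran from 35.0% to 41.9% over the arrays. All 8 hepatocyte markers, among them Alb and Ttr, were well above background on all 16 arrays, which matches the tissue label. Fewer cells of a type and less RNA per cell cannot be told apart in such tissue RNA.

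Sulfotransferases move a sulfonate group from the activated donor PAPS onto small molecules, which makes them more water-soluble and easier to excrete. The Sult1 enzymes act mainly on phenols, catechols, iodothyronines and some aromatic amines, and the Sult2a enzymes act on hydroxysteroids such as dehydroepiandrosterone and on bile acids. In rat liver, Sult2a enzymes are known to be higher in females and Sult1c enzymes in males, a difference set by the sex-dependent pattern of growth hormone secretion. In rodents, bile acid and xenobiotic receptors are also known to act on Sult2a promoters.

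Sult2a6, Sult2a1 and Sult2a2 lie on the minus strand of chromosome 1 in the GRCr8 build. Their upstream sequences are shown because these neighbours look alike at the promoter, while the array-to-array spread of Sult2a6 and Sult2a1 differed. The 250 bases before the annotated start are given 5′ to 3′ from RefSeq, with the 6 letters TCATGA in capitals, the centre of the inverted repeat through which nuclear receptors are known to bind rodent Sult2a promoters. The windows are chr1:84097809-84098058 for Sult2a6, chr1:84638948-84639197 for Sult2a1 and chr1:85104533-85104782 for Sult2a2.
Sult2a6: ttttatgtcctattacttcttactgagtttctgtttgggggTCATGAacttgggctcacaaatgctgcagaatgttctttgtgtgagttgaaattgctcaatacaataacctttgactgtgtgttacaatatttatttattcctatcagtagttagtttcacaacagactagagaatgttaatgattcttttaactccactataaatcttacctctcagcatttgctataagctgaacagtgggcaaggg
Sult2a1: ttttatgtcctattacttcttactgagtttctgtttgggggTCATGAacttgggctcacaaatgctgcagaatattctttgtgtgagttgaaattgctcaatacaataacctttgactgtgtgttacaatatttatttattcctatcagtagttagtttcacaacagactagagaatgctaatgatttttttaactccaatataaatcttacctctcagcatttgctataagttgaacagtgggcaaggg
Sult2a2: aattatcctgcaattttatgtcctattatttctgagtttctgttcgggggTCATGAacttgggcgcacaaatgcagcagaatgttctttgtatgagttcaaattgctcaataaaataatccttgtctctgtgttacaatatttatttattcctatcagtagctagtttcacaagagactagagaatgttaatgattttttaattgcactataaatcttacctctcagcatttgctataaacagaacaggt

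The Sult2a6 and Sult2a1 windows were identical at 245 of 250 bases (98%), and differed at 5 bases with no gap. Aligned with gaps, the Sult2a2 window shared 219 bases (87.6%) with that of Sult2a6 and 215 (86%) with that of Sult2a1. TCATGA began 209 bases before the start in both Sult2a6 and Sult2a1 and 200 bases before it in Sult2a2. Searched on both strands, the same 6 letters occurred in 4.63% of the 33469 windows of this length in the table. TATAAA began 50 bases before the start in Sult2a6 and Sult2a1, and the Sult2a2 window held it 42 and 16 bases before the start (12.9% of all windows hold it). AGGTCA, a nuclear receptor half-site, was in none of the 3 windows and in 14.1% of all. These are matches of letters only, and no factor binding was measured.

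Of the hydroxysteroid enzymes, Sult2a6 stood out by its spread. Its values in the 4 MM livers were 3.75, 5.03, 3.33 and 4.60, and in the 4 M livers 5.93, 6.26, 2.78 and 4.14. In CC livers they were 5.85, 4.87, 5.70 and 5.43, and in C livers 5.91, 3.40, 2.89 and 5.28. High and low pools stood side by side in M and in C, while the 4 CC pools all lay in the upper part of the range and no MM pool passed 5.03. The groups averaged 4.18 ± 0.77 in MM, 4.78 ± 1.62 in M, 5.46 ± 0.43 in CC and 4.37 ± 1.45 in C (SD, n = 4 each), and every pair of groups overlapped.

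**Figure D1:**
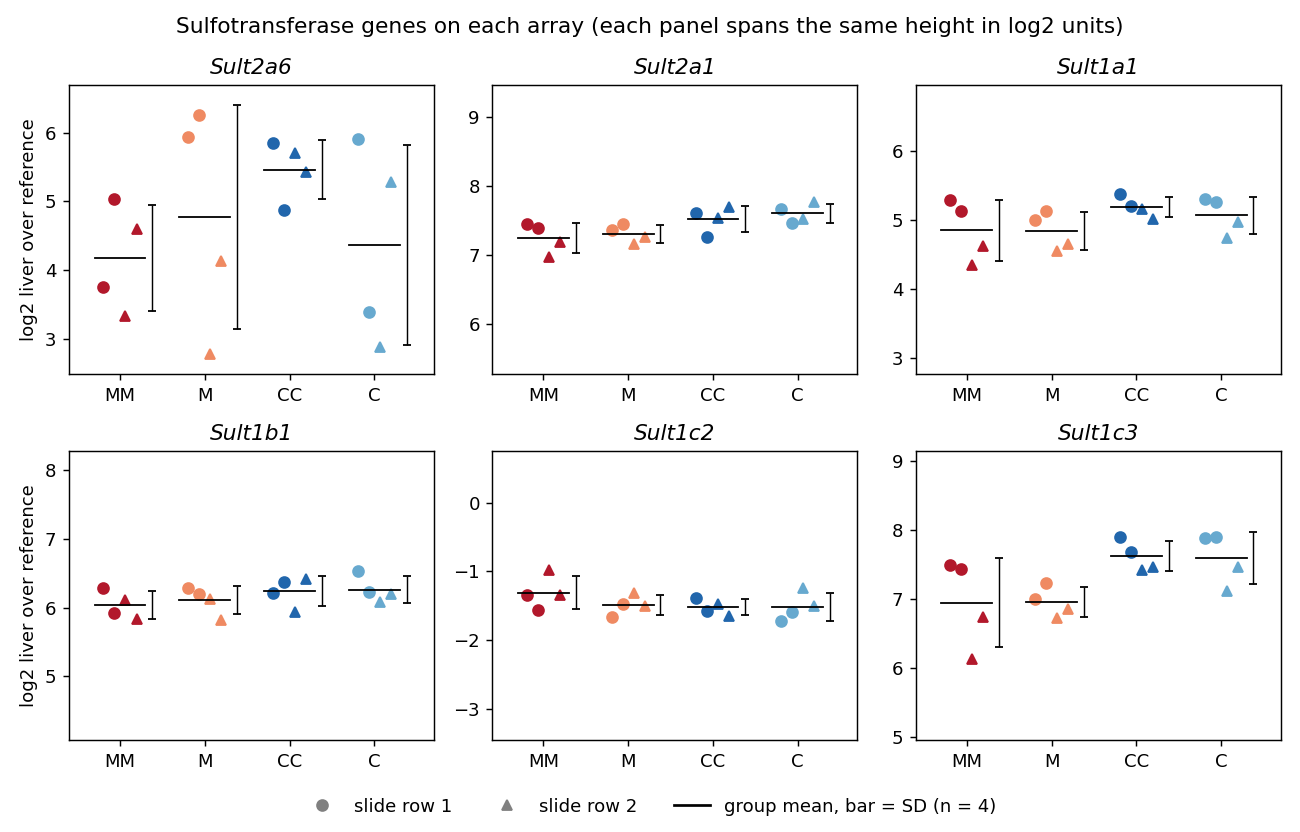
Log2 liver over reference (y axis, each panel on its own range of the same height) of 6 sulfotransferase genes on every array, with MM, M, CC and C from left to right. Points are arrays (circles slide row 1, triangles slide row 2), black lines are group means and bars SD (n = 4). Sult2a6 spans 2.78 to 6.26 and Sult1c3 spans 6.13 to 7.90, and the other genes lie in narrower bands.

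From the lowest array to the highest, Sult2a6 spanned 11.2-fold in the ratio and 8.3-fold in the liver channel. Its raw liver signal ran from 274 to 941 in MM, 232 to 2119 in M, 737 to 1178 in CC and 212 to 1344 in C, over a local background near 70. The liver spot was well above background on 16 of 16 arrays. The reference spot was so on 0 of 16, so the ratio sets liver against a background-level reference. The within-group SD was 1.18 in the ratio, rank 9 of 11091 features, against a median SD of 0.18. Liver alone gave 1.00 (rank 13) and the reference 0.06. Replicate spots of the Sult2a6 probe on one array differed by an SD of 0.37, which is smaller than the spread between pools. Since the gene was chosen for this spread, these ranks are a description.

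**Figure D2:**
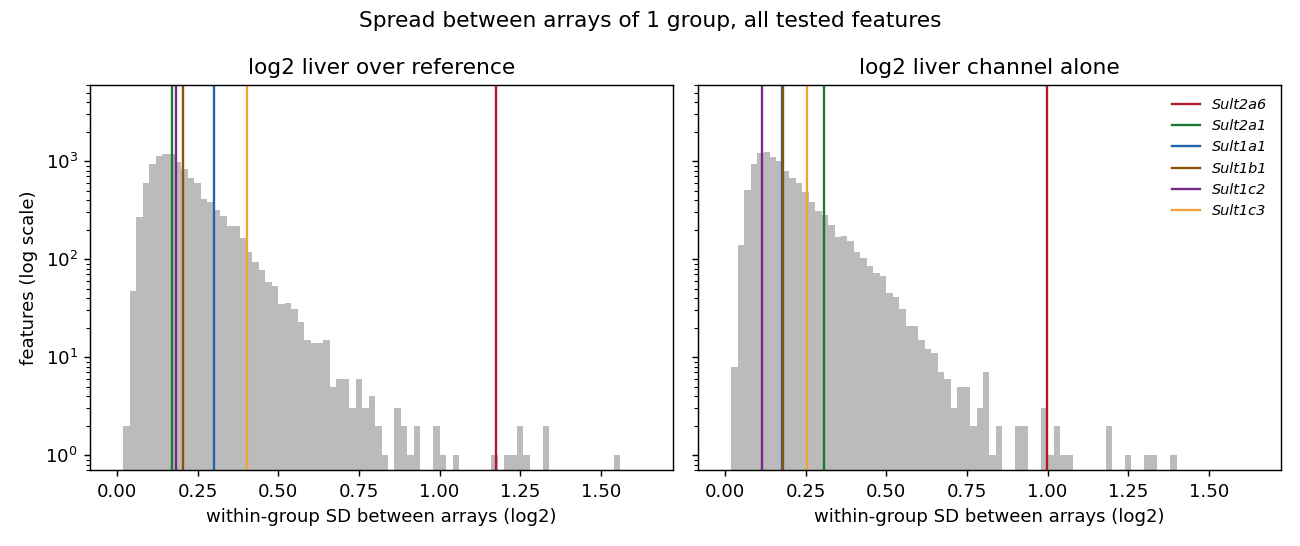
Number of tested features (y axis, log scale) by their within-group SD between arrays (x axis, log2 units), for the ratio at left and the liver channel alone at right. Coloured lines mark 6 sulfotransferase genes, with Sult2a6 at 1.18 and 1.00 and the others at or below 0.40.

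Sult2a1, the neighbour with the near-identical promoter window, did not show that spread. Its values were 7.45, 7.39, 6.97 and 7.18 in MM, 7.36, 7.45, 7.15 and 7.26 in M, 7.60, 7.26, 7.53 and 7.69 in CC, and 7.66, 7.46, 7.52 and 7.76 in C. The M values all lay below the C values by a narrow margin, and MM and CC overlapped. Its within-group SD was 0.17 in the ratio (56.4% of features had a larger one). In the liver channel the SD was 0.31, larger than in the ratio, and 14.1% of features exceeded it. For this gene the deviations of liver and reference channels from their group means correlated at 0.86 over the 16 arrays, against 0.78 for Sult2a6 and a median of 0.29 over all features. Both channels come from the same spots and hybridisation. Sult2a2, the other neighbour, was well above background on 0 of 16 arrays in liver, with raw signals of 67.4 to 77.2.

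Sult2a1 and Sult2a6 went together in part. With group means taken off, their ratios correlated at 0.63 over the 16 arrays (0.76 in the liver channel). The value was 0.62 on the MM and M slide and 0.64 on the CC and C slide. Among the other members, the correlation with Sult2a6 was 0.55 for Sult1a1, 0.45 for Sult1c3, 0.21 for Sult1b1 and -0.61 for Sult1c2. How far the probes of these neighbours read each other's RNA was not tested.

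Other genes followed Sult2a6 more closely. Over the 7376 symbol-bearing features complete on all arrays, the highest correlation of deviations belonged to Prlr, the prolactin receptor, at 0.95 (Spearman 0.96, liver channel 0.95). It was 0.97 without M replicate 7 and C replicate 11, the arrays with the lowest Sult2a6 ratios, 0.97 within slide row 1 and 0.94 within row 2. Other genes with high values were Chmp4c (an ESCRT-III subunit, 0.91), Krtap10-9 (a keratin-associated protein, 0.89) and Tom1 (an endosomal adaptor, 0.88). The most opposite were Ypel3 (-0.91), the pocket protein gene Rbl2 (-0.90) and Slc29a1, a nucleoside transporter (-0.88). For comparison, 95% of these features lay below 0.64. These genes were picked as extremes among all features on arrays that share libraries and slides, so the correlations carry no test.

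The prolactin receptor was dim but moved over a wide range. Prlr had 0.32, 1.47, 0.07 and 0.87 in MM, 1.82, 1.94, 0.49 and 0.72 in M, 1.42, 0.61, 1.52 and 1.34 in CC, and 2.31, 0.57, 0.31 and 2.07 in C. It was well above background in liver on 11 of 16 arrays, and in each of the 4 groups the array lowest in Prlr was also the lowest in Sult2a6. Srd5a1, steroid 5-alpha-reductase 1, had 2.75, 3.15, 1.74 and 2.37 in MM, 3.34, 3.60, 2.42 and 2.77 in M, 3.41, 3.08, 2.88 and 2.91 in CC, and 3.59, 2.45, 1.73 and 3.22 in C. Its correlation with Sult2a6 was 0.87 (0.84 in the liver channel, 0.88 and 0.86 within rows 1 and 2).

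**Figure D3:**
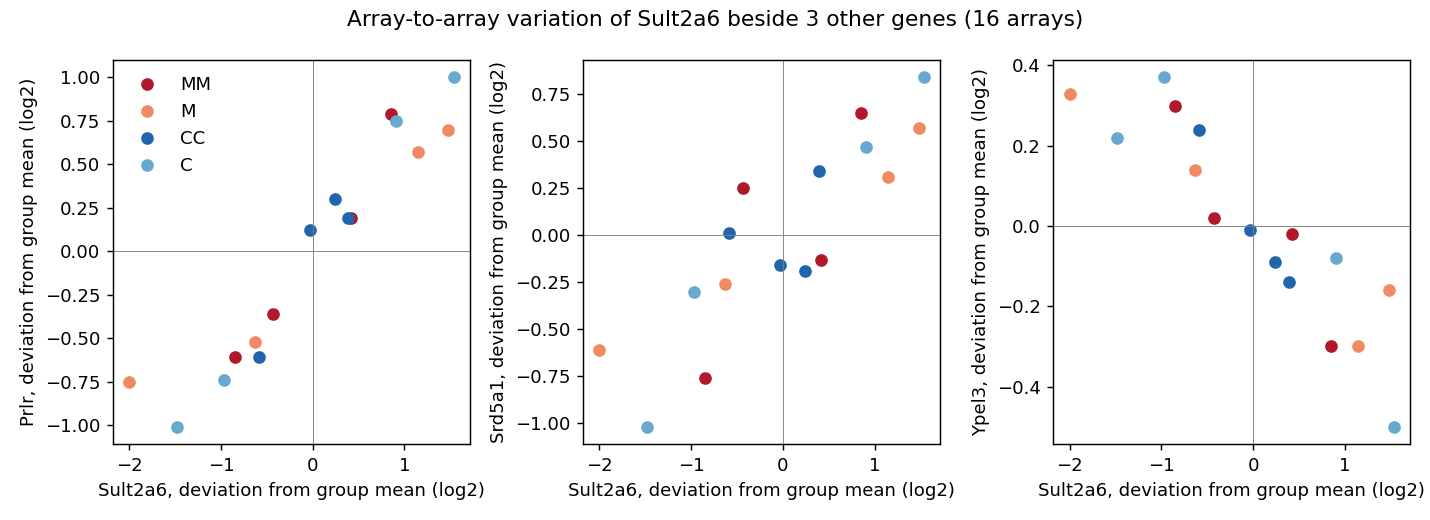
Deviation of each array from its group mean (log2) for Sult2a6 (x axis) and for Prlr, Srd5a1 and Ypel3 (y axes, left to right), 16 arrays coloured by group. Prlr and Srd5a1 rise along Sult2a6 (r = 0.95 and 0.87) and Ypel3 falls (r = -0.91).

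Prlr and Srd5a1 belong to a list of genes known to be higher in the liver of female rats, of which 4 of 6 were tested. All 4 had r above 0 with Sult2a6, but Prlr had been picked as the highest of all features. The share of all features with r above 0 is not given here. Nothing is therefore read from this count, nor from the counts of signs in the lists that follow. Cyp2c7 reached 0.57 (0.76 in the liver channel) but Cyp2c12, a classical female-specific P450 in rats, only 0.06. For Cyp2c12 the value was -0.12 within slide row 1 and 0.90 within row 2. Without M replicate 7 and C replicate 11 it was -0.06, so its sign is not settled. Of 5 tested genes known to be higher in males, 3 had r below 0, led by Cyp3a2 at -0.75. Cyp4a2 was an exception at 0.70, and Cyp2c11, a male-specific P450, was at 0.10 in the ratio and -0.87 in the liver channel.

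Genes that supply or use the sulfate donor followed Sult2a6 less closely. Of 11 tested genes of sulfate and PAPS supply, 9 had r above 0, from -0.27 (Got1) to 0.57 (Bpnt1, which clears the PAP left after sulfonation). Papss2, the PAPS synthase measured here, was at 0.10. Of 11 tested regulators, 5 were above 0, from -0.67 (Nr1h3, the oxysterol receptor LXR-alpha) to 0.48 (Rxra). The pregnane X receptor Nr1i2 was at 0.25 and the bile acid receptor Nr1h4 at -0.45.

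**Figure D4:**
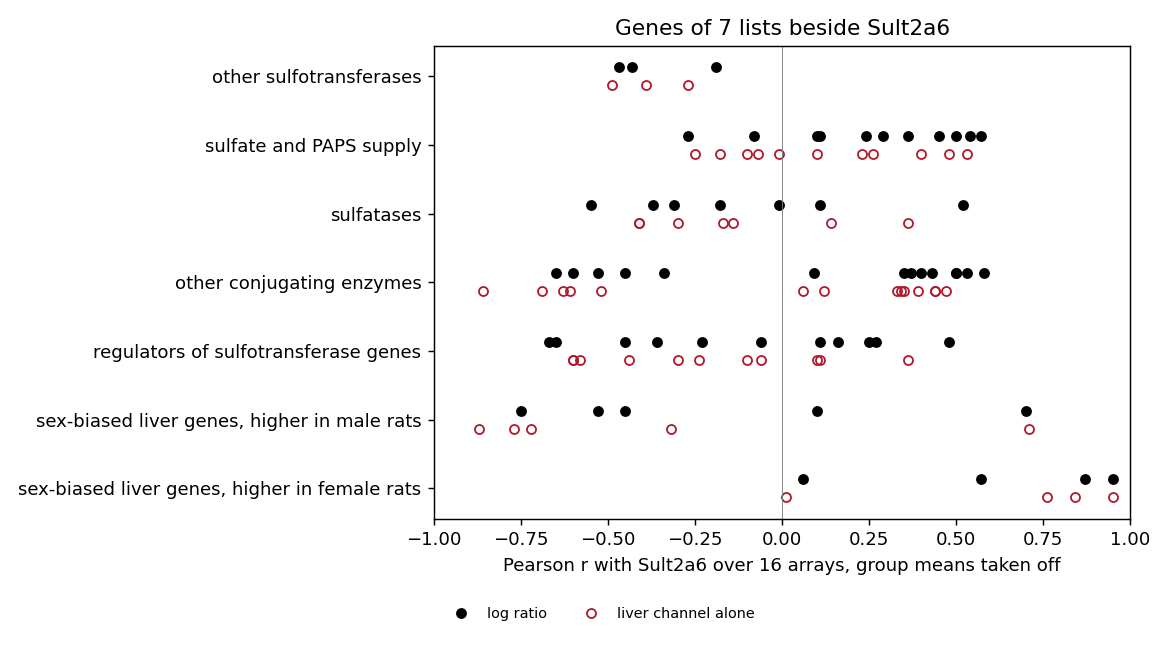
Pearson r with Sult2a6 over 16 arrays with group means taken off (x axis) for each tested gene of 7 lists (rows), in the ratio (black) and in the liver channel alone (open red). The genes known to be higher in female rats run from 0.06 to 0.95 in the ratio, and the other lists spread on both sides of 0 or stay below 0.60, apart from Cyp4a2 at 0.70.

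Among the phenol and amine enzymes, Sult1a1, the main phenol sulfotransferase, had 5.30, 5.14, 4.35 and 4.63 in MM and 5.00, 5.14, 4.56 and 4.65 in M. It had 5.38, 5.20, 5.16 and 5.02 in CC and 5.31, 5.27, 4.74 and 4.97 in C. In each of the 4 groups the lower pair of values came from slide row 2. Raw liver signal ran from 6043 to 14789 over all arrays, and both channels were well above background on all 16.

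Sult1c3, an N-hydroxyarylamine sulfotransferase known to be higher in male rats, had 7.49, 7.43, 6.13 and 6.73 in MM and 7.0, 7.23, 6.72 and 6.86 in M. It had 7.90, 7.68, 7.42 and 7.47 in CC and 7.89, 7.90, 7.12 and 7.47 in C. The lowest value, 6.13, was that of MM replicate 3, the array with the highest spot-to-spot variation in liver (40.0%). The within-group SD was 0.40, and 5.58% of features had a larger one.

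Sult1b1, which acts on thyroid hormones and catechols, had a within-group SD of 0.20, near the median of all features. The brighter of its probes gave 6.29, 5.92, 6.11 and 5.83 in MM, 6.29, 6.20, 6.13 and 5.82 in M, 6.21, 6.37, 5.94 and 6.42 in CC, and 6.53, 6.23, 6.08 and 6.20 in C. The other probe correlated with it at 0.74 over arrays and gave group differences of the same sign in each of the comparisons.

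Sult1c2 was the only one of the set with less signal in liver than in the reference. Its ratio ran from -1.56 to -0.98 in MM, -1.66 to -1.31 in M, -1.65 to -1.39 in CC and -1.72 to -1.24 in C. The liver spot was well above background on 4 of 4 MM arrays, 3 of 4 M arrays, 1 of 4 CC arrays and 2 of 4 C arrays, with raw signals of 80.2 to 113. A group needed 3 of 4 such arrays, so Sult1c2 was tested only because of the exposed groups. Its differences between exposed and control groups, given below, carry that limit. The Sult1c2 ratio followed the spot-to-spot variation of the array in liver, with r = 0.85 over the 16 arrays (the median size of that r over all features was 0.43). Sult1c3 and Sult1a1 went the opposite way, at -0.72 and -0.61. Sult2a6 (-0.39), Sult2a1 (-0.36) and Sult1b1 (-0.16) were below the median size. The part of that variation in the values of these genes was not tested.

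Slide row was set beside the groups in a fit with group and row. Differences between rows are a piece of the spread on which the genes were chosen, so they are given as a description. Sult1a1 averaged 4.76 in row 2 and 5.22 in row 1, a difference of -0.46 ± 0.07 (SE). Sult1c3 averaged 6.99 in row 2 and 7.56 in row 1, a difference of -0.58 ± 0.11. In the liver channel the row difference was -0.15 ± 0.08 for Sult1a1 and -0.32 ± 0.09 for Sult1c3. For Sult2a6 the row difference was -0.86 ± 0.47 in the ratio and -0.63 ± 0.42 in the liver channel. At the same threshold 2 of 6 genes were called between rows and 42.4% of all 11091 features were, and nothing is read from the members' count. In the liver channel 1 of 6 was called (45.2% of features) and in the reference channel 0 of 6 (1.4% of features). With the scanner software's own log ratio 0 of 6 genes and 0 of 11091 features passed, and the values were -0.15 for Sult1a1 and -0.45 for Sult1c3.

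Sult1a1 and Sult1c3 moved together in the ratio, with r = 0.96 over the 16 arrays after group means were taken off. In the liver channel r was 0.48. For Sult1a1, 5% of all features reached 0.88 or more in the ratio, so a high correlation was common there. Both genes were most like F10, coagulation factor X (0.98 for each in the ratio), and the liver-channel values were 0.28 for Sult1a1 and 0.80 for Sult1c3.

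Fostering was examined in exposed litters (MM minus M) and in control litters (CC minus C). None of the 6 genes was called in either (limma, Benjamini-Hochberg adjusted p under 0.05), and 0% of all 11091 features were. The groups overlapped for all 6 genes, in the ratio and in the liver channel, where 1.08% and 0.92% of features did not overlap in MM minus M and 0.884% and 1.05% in CC minus C. At an unadjusted p under 0.05 there were 195 features in MM minus M and 107 in CC minus C. Sult2a6 differed by -0.60 ± 0.73 in MM minus M (95% interval -2.15 to 0.95) and by 1.09 ± 0.73 in CC minus C (-0.46 to 2.64). These intervals leave room for changes of over 2 log2 units. The difference between them was -1.69 ± 1.03 (-3.88 to 0.50), and among all features 0% were called for it.

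Within slide rows the Sult2a6 difference changed sign between rows in MM minus M but not in CC minus C. MM minus M was -1.70 in row 1 and 0.50 in row 2, and CC minus C was 0.70 in row 1 and 1.48 in row 2. Over both rows together, the other 5 genes lay between -0.07 and 0.18 in MM minus M and between -0.08 and 0.12 in CC minus C. Within rows they ranged more widely, and Sult1c3 was 0.34 in row 1 and -0.36 in row 2 in MM minus M. In CC minus C they ran from -0.18 (Sult1c2 in row 2) to 0.24 (Sult1a1 in row 2). Over the 6 genes the median was -0.03 in MM minus M (0.00 over all features) and 0.01 in CC minus C (-0.01 over all features).

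Exposure was examined with fostering (MM minus CC) and without it (M minus C). None of the 6 genes was called in either, against 0.902% of features in MM minus CC (0.613% lower) and 4.1% in M minus C (2.56% lower). The groups did not overlap for 0 of 6 genes in MM minus CC (6.61% of features) and for 1 of 6, Sult2a1, in M minus C (10.9% of features). Since the set was chosen with these differences known, nothing is read from those counts. The medians over the 6 genes were -0.30 in MM minus CC and -0.19 in M minus C, where all features had -0.02 and -0.03. In the liver channel alone these medians were -0.03 in both.

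Sult2a6 differed by -1.28 ± 0.73 in MM minus CC (95% interval -2.83 to 0.27) and by 0.40 ± 0.73 in M minus C (-1.14 to 1.95). In slide rows 1 and 2 MM minus CC was -0.96 and -1.60, and M minus C was 1.43 and -0.63. The M minus C value was -0.35 with the scanner software's log ratio, so it has no settled sign. With the sample number as a block, MM minus CC for Sult2a6 had a SE of 0.38 and was not called. Sult2a1 differed by -0.27 ± 0.12 in MM minus CC and by -0.29 ± 0.12 in M minus C, and in the liver channel by -0.10 ± 0.20 and -0.16 ± 0.20. In slide row 1 its MM minus CC value was -0.01 and in row 2 -0.53, and with the scanner software's log ratio it was 0.03.

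Sult1c3 differed by -0.67 ± 0.26 in MM minus CC and by -0.64 ± 0.26 in M minus C. They were not called in the main analysis. Both were called with slide row as a block and with the scanner software's log ratio (-0.98 and -1.17), and M minus C also in row 1 alone (-0.78). MM minus CC was not called with the sample number as a block, nor in row 1 (-0.33) or row 2 (-1.01) alone, and M minus C was not in row 2 (-0.50). Without MM replicate 3 the MM minus CC value was -0.40 for Sult1c3, -0.17 for Sult1a1, -0.18 for Sult2a1 and 0.10 for Sult1c2. In the liver channel the differences were -0.03 ± 0.17 and -0.01 ± 0.17. The reference channel, which holds the same commercial RNA on every array, differed by 0.45 ± 0.10 in MM minus CC and by 0.51 ± 0.10 in M minus C for this probe. The lower Sult1c3 ratios on the MM and M slide thus stood beside a higher reference signal and near-equal liver means.

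Sult1a1 had opposite signs in the ratio and in liver. Its M minus C value was -0.24 ± 0.20 in the ratio and 0.39 ± 0.12 in the liver channel, where the M and C arrays did not overlap (4.88% of features). None of the 6 genes was without overlap in the liver channel in MM minus CC (4.24% of features). The reference channel differed by 0.53 ± 0.17. In MM minus CC the values were -0.34 ± 0.20 for the ratio, 0.10 ± 0.12 for liver alone and 0.37 ± 0.17 for the reference. Over all features, 45.3% in MM minus CC and 48.5% in M minus C were called in the reference channel, against 0.027% and 0.00902% in the liver channel. Sult1b1 differed by -0.20 ± 0.14 in MM minus CC and -0.15 ± 0.14 in M minus C, and Sult1c2 by 0.21 ± 0.13 and 0.03 ± 0.13.

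**Figure D5:**
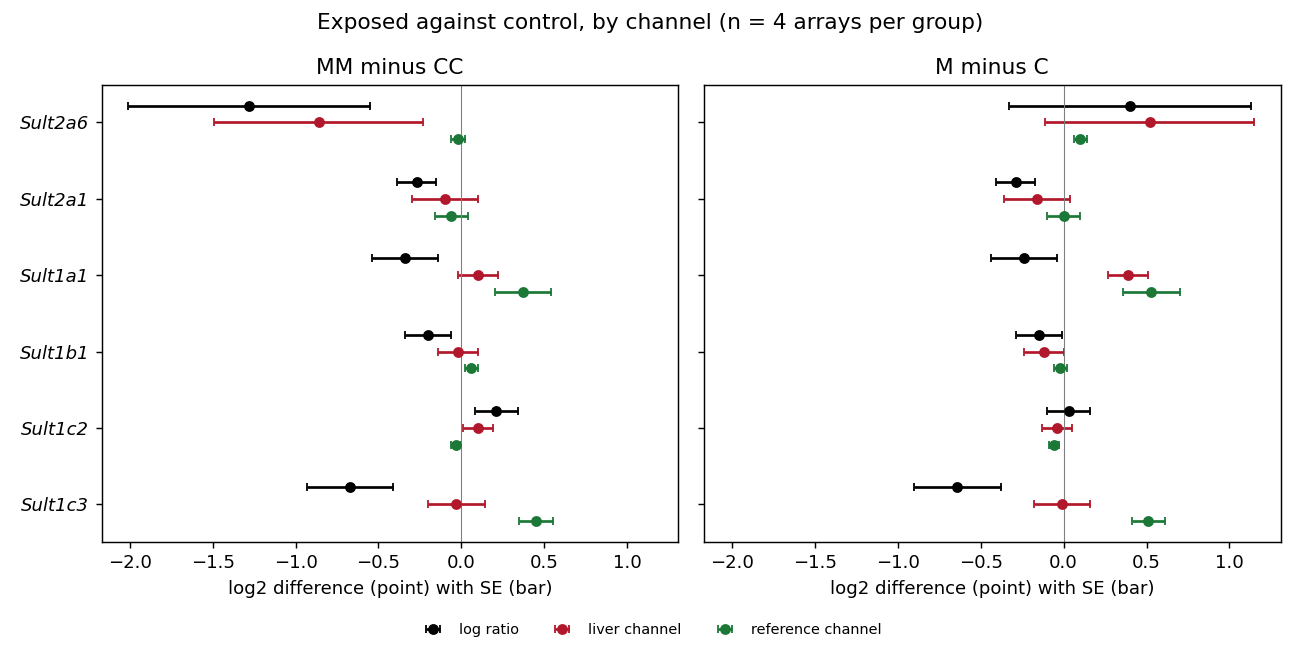
Log2 difference with its SE (x axis) for 6 sulfotransferase genes (rows) in MM minus CC (left) and M minus C (right), from 4 arrays per group. Black is the ratio, red the liver channel and green the reference channel, and Sult1c3 and Sult1a1 show a higher reference signal (0.37 to 0.53) on the MM and M slide.

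The other sulfotransferases were mostly below detection. Sult1d1, Sult2b1 and Sult4a1 were well above background on 0 of 16 arrays in liver. Sult1c2a was tested through its brighter probe, which ranged from 2.79 to 5.04. The gene's probes correlated at only 0.28. In slide row 2 the tested probe was 0.86 ± 0.17 higher than in row 1 (limma adjusted p = 0.000892). Of all features 42.4% were called between rows, and 0% with the scanner software's log ratio. The gene's other probe showed no such rise. In CC its row 2 values (3.86 and 3.42) lay below its row 1 values. In C, M and MM its values in the rows overlapped. Of the tyrosylprotein sulfotransferases, which act on proteins in the Golgi, Tpst1 differed by 0.40 ± 0.16 and Tpst2 by -0.23 ± 0.08 in M minus C. None of these 3 tested genes was called in any comparison of groups.

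In the supply of the donor, 1 of 11 tested genes was called, Bpnt2, the Golgi phosphatase that clears PAP, in M minus C (4.1% of all features were called there and 0.902% in MM minus CC). It had 0.36, 0.28, 0.40 and 0.21 in M and 0.86, 0.49, 0.89 and 0.90 in C, a difference of -0.47 ± 0.10 (limma adjusted p = 0.0106) with no overlap. Its liver channel differed by -0.03 ± 0.11 and its reference channel by 0.42 ± 0.04. Slc26a1, a sulfate anion transporter of the hepatocyte, differed by -0.31 ± 0.09 in M minus C (limma adjusted p = 0.0776) and -0.20 ± 0.09 in MM minus CC. The thiosulfate sulfurtransferase Tst differed by 0.18 ± 0.09 in M minus C, and sulfite oxidase Suox by -0.20 ± 0.10 in MM minus M.

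Sulfatases, which remove sulfate, had 0 of 7 tested genes called. With 4.1% of all features called in M minus C and 0.902% in MM minus CC, a count of 0 in a list of this size tells nothing about the list, and this holds for the next lists too. Arsa differed by 0.31 ± 0.10 in M minus C, Arsg by 0.35 ± 0.14 in MM minus CC, and Arsb by -0.24 ± 0.14 in M minus C. Of the other conjugating enzymes 0 of 14 were called. Low p-values belonged to the glucuronosyltransferase Ugt2b35 (-0.30 ± 0.10), the bile acid conjugating enzyme Baat (-0.29 ± 0.10) and the acetyltransferase Nat1 (-0.30 ± 0.10), all in M minus C. Of the regulators 0 of 11 were called. Nr1h4 differed by -0.68 ± 0.31 and Nr1h3 by -0.20 ± 0.10 in M minus C, and Hnf4a by -0.36 ± 0.15 in MM minus CC.

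With 4.1% of all features called in M minus C, 1 of 5 genes known to be higher in male rats was called there, Cyp2c13 (-0.77 ± 0.18, limma adjusted p = 0.0213), with -0.22 ± 0.22 in the liver channel. None of the 4 tested genes known to be higher in females was called. Of the cell type markers, 8 of 8 hepatocyte markers lay below 0 in M minus C (median -0.30) and 6 of 8 in MM minus CC (median -0.21), with liver-channel medians of -0.01 and -0.06. Tf, transferrin, was the 1 called among them (-0.56 ± 0.15, limma adjusted p = 0.0488, in M minus C). All 5 tested erythroid markers lay below 0 in M minus C (median -0.61, liver channel -0.43), and Hbb-b1, a beta globin, was called (-0.88 ± 0.24, limma adjusted p = 0.0494). Pdgfrb was called among 7 stellate cell markers (-0.48 ± 0.09, limma adjusted p = 0.00518, in M minus C). The tested cholangiocyte (4), sinusoidal endothelial (4), Kupffer cell (7) and lymphocyte (1) markers had 0 called. The part of these in the sulfotransferase values was not tested.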

How the data were processed

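RNA of 16 liver pools (4 groups of 4) was measured on 2-colour arrays. Per the file headers, the deposited scanner files give each channel's median intensity of spot and background, and a log10 ratio of processed red over green signal, from Agilent Feature Extraction 11.0.1.1 on array design 028279. The authors' deposited value table was taken as log2 of liver over reference. It correlated at 0.989 to 0.995 with each array's loess-normalized ratios made without background subtraction. A correlation does not depend on the base of the log, so it does not settle the unit. Its medians were -0.038 to -0.027, and its making and centring are not given in the sources used here.

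Intensities were corrected with normexp (offset 50) on medians, because the files carry no means as planned, and normalized by loess within arrays in limma 3.58.1 (R 4.3.3), with control spots at weight 0 and outlier spots left out. Channels alone were quantile-normalized. Probes were named through accessions (18005 of 30367 matched) in the RefSeq GRCr8 gene table. Probe coordinates belong to an earlier build and are not given, only those of promoter windows. The brightest probe per name was kept for testing where liver exceeded background by the scanner's flag on 3 of 4 arrays of a group. Called means a Benjamini-Hochberg adjusted p under 0.05 over 11091 features, from 4 group means with 12 residual degrees of freedom. The number of arrays limits the precision.

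Genes, lists and tests were chosen with earlier results of these data known. Named genes were all members, all other Sult genes, up to 4 per list with the lowest p, and the 5 features most like and the 3 most unlike each member (given here for those the text turns on). A few genes that this rule names, and 1 of the motifs searched, are not reported here. Other list genes named for their correlation with Sult2a6 were chosen after their values were seen. Sample numbers 1 to 4 occur in both MM and CC, and same-numbered arrays share a slide row. Their deviations correlated at 0.55, 0.16, 0.58 and 0.19, so the number was also used as a block. Alternatives changed background, normalization, filter, probe, channel, row and arrays, and the fit with slide row was added after seeing the data.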

Additional observations from a re-analysis of the deposited data

Results flagged for a closer look

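Among 48 sets of 4 arrays (12 sulfotransferase genes in 4 groups), 2 held an array farther from the others than expected for 4 samples, and chance gives about 1 in 20 such sets. Sult6b1 had 4.48 on M replicate 8, where the other M arrays lay between 0.01 and 0.06. This probe has 1 spot per array, its liver signal there was 934 over a local background of 111, and its reference spot was also above background on that array alone. Sult4a1 had -0.11 on C replicate 11, where the other C arrays lay between -0.01 and 0.01, with all of them below background.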

How the results depend on the processing

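Over 30 member differences and 791 recomputations, 18 moved by an SD between arrays or more. The bar was each gene's own within-group SD, which was widest for Sult2a6 (1.18). None of the 18 was for Sult2a6, and with so wide a bar this is no sign of stability. Over the alternatives Sult2a6 ran from -1.70 to 0.50 in MM minus M and from -0.63 to 1.43 in M minus C. It kept its sign in CC minus C and in MM minus CC. These 18 came from the liver channel, the scanner software's ratio or single rows, for Sult2a1, Sult1a1, Sult1c2 and Sult1c3. A member was called under 3 alternatives, always Sult1c3. Without 1 array, Sult2a6 ranged from -1.26 to -0.10 in MM minus M, 0.60 to 1.60 in CC minus C, -1.57 to -1.0 in MM minus CC and -0.09 (without C replicate 11) to 1.07 (without M replicate 7) in M minus C. Sult2a1 between rows was -0.07, but 0.02 with the scanner software's log ratio and 0 with the authors' table. Counts of calls were 0 for MM minus M, for CC minus C and for their difference under every alternative, except 1 for CC minus C with the scanner software's ratio. For M minus C the count of 455 became 1367 with that ratio, 1 in the liver channel, 1167 with slide row as a block, 190 and 4 within rows 1 and 2, and 215 (without M replicate 8) to 532 without 1 array. For MM minus CC the count of 100 became 491, 3, 420, 67 and 1 under the same settings, 177 (111 higher, 66 lower, against 32 higher and 68 lower) with median centring, and 36 (without CC replicate 2) to 111 without 1 array. Median centring gave 247 higher and 196 lower in M minus C, against 171 and 284. With the replicate block on the MM and CC arrays 135 features were called for MM minus CC and no member call changed. Bpnt2 in M minus C lost its call with median centring (-0.36), in the liver channel and within either row. The cause of these shifts was not tested. Between rows, 23.2% of features were called with median centring and 0% with the scanner software's ratio. Depth is limited by signal over background for Sult1c2, Prlr and the reference spot of Sult2a6.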
